A study of Mus musculus with 15 samples.

Results

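Pre-mRNA splicing factor genes were followed through a dissociation time course of mouse skeletal muscle stem cells. The genes were chosen by name: CDC-like kinases (Clk1 to Clk4), serine/arginine-rich splicing factors (Srsf followed by a number), the TRA2 proteins (Tra2a and Tra2b), heterogeneous nuclear ribonucleoproteins (Hnrnp), small nuclear ribonucleoprotein proteins (Snrp) and subunits of splicing factor 3 (Sf3a and Sf3b). This rule found 54 genes among the 8059 listed in the authors' bulk table: 4 CLK, 10 SRSF, 2 TRA2, 20 hnRNP, 10 snRNP and 8 SF3 genes. The naming rule uses no measured value of these genes, though the table lists only genes above a minimum mean level, and all 54 were tested. The same naming rule matches 58 protein-coding genes in GENCODE, and Sf3b5, Snrpg, Snrpn and Srsf12 were not analysed here.

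The study measured bulk RNA from muscle stem cells (satellite cells, the quiescent stem cells that regenerate muscle fibres) of the mouse, Mus musculus. T0 came from intact tissue, and T15, T30, T60, T90 and T120 came from tissue dissociated with collagenase and dispase. All 6 groups, T0 included, were fixed with paraformaldehyde, so the controls carry the fixation too. The labels of these 6 samples give no strain, age, sex or genotype and no unit for the numbers after T, which are read here as minutes. Each time point is 1 deposited sample, for which the table holds libraries lettered A to D (A to C at T30 and T90), 22 libraries in all. Nothing in the labels says that the letters are separate animals, so p-values measure the spread between these libraries, which may be technical. Since whole samples were measured, fewer cells of a type and less RNA per cell cannot be told apart.

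The libraries held between 2974294 and 27826437 counts in listed genes, with 2974294 to 10482407 at T0 to T30 and 8647622 to 27826437 at T60 to T120. All 12 muscle stem cell markers were listed and above 0, with a summed level of 5802 to 7443 CPM (counts scaled to library size) at T0 and 6581 to 7987 at T120, although 7 of the 12 fell and 3 rose at T120 by the edgeR test and Pax7, the transcription factor that defines these cells, went from 1344 ± 203 to 377 ± 80.8 CPM. The median density over 10 long genes of a hand-written list, mostly neuronal and ciliary genes, served as a measure of background signal. It was scaled to the listed counts of each library, without the TMM factor that the CPM of single genes carry. Not all 10 are silent in these libraries: Ryr3 held 954 to 5273 counts and Cacna1a 298 to 1246, so the median and not the sum was taken. At T60 to T120, Csmd1 held 132 to 424 counts, Grin2a 113 to 496 and Dnah17 36 to 268, where Muc16 held 0 to 175. The median at those time points may therefore hold expression as well as background, which was not tested. The median was 2.52 ± 1.185 CPM per kb of exon (SD, n = 4) at T0, 1.78 ± 1.73 (n = 4) at T15, 4.69 ± 2.78 (n = 3) at T30, 0.155 ± 0.037 (n = 4) at T60, 0.273 ± 0.163 (n = 3) at T90 and 0.510 ± 0.360 (n = 4) at T120. The 5 libraries with the highest background were A and C of T0, D of T15, and A and B of T30, and the mean background was higher at each of the first 3 time points than at each of the last 3, the same division at which most splicing genes changed. The sum of the myofibre markers (5 of 8 listed, none at 0) moved at the same division. It was 316 to 494 CPM at T0, 305 to 611 at T15 and 305 to 824 at T30. Later it was 147 to 209 at T60, 171 to 205 at T90 and 142 to 356 at T120, which overlaps T0. Ttn made up most of this sum, with means of 356 CPM at T0, 125 at T60 and 170 at T120. By the edgeR test 3 of the 5 fell at T60, and 2 rose and 2 fell at T120. The means of Acta1 (8.29 to 36.2 CPM) and Tnnt3 (10.1 to 19.4) were higher at T120 than at T0. Endothelial markers (5 of 6 listed, none at 0) summed to 149 to 240 CPM at T0, 124 to 181 at T60, 163 to 245 at T90 and 321 to 599 at T120, where all 5 rose. Smooth muscle and pericyte markers (5 of 6 listed, none at 0) summed to 904 to 1191 CPM at T120 against 910 to 1067 at T0. Most of that sum was Notch3, which is also among the 12 muscle stem cell markers. At T120 2 rose and 1 fell: Rgs5 (12.4 ± 2.68 to 125 ± 54.6 CPM) and Myh11 (20.9 ± 9.20 to 96.0 ± 23.8) were higher and Notch3 (724 ± 93.2 to 575 ± 96.0) lower, while Acta2 and Mcam were not called. Fibro-adipogenic markers (4 of 6 listed) summed to 1012 to 1734 CPM at T0 and 1130 to 1373 at T120, where 2 rose and none fell. Of 6 immune markers only Cd68 was listed, at 10.2 ± 1.12 CPM at T0, 34.0 ± 15.1 at T30 and 16.8 ± 6.83 at T120. The part of these cells in the values of the splicing genes was not tested.

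Splicing removes introns from pre-mRNA. The U1 and U2 snRNPs recognise the splice sites: each carries a ring of Sm proteins, encoded by Snrpb, Snrpd1 to Snrpd3 and Snrpe to Snrpg, and SF3 subunits hold U2 at the branch point. SR proteins (SRSF and TRA2) mostly promote the use of nearby exons, hnRNP proteins often act against them, and CLK kinases phosphorylate SR proteins and so govern their activity in the nucleus. Many genes of these regulators limit their own output by splicing in an exon with a premature stop, and CLK1 and CLK4 keep part of their transcripts in the nucleus with introns retained.

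From T60 on more of the 54 genes were higher than lower, most of them SRSF, TRA2 and hnRNP genes. At T15 none of the 54 genes passed edgeR's quasi-likelihood test (adjusted p under 0.05 over 8059 genes), against 0.67% of all genes, with 6 at an unadjusted p under 0.05 and 1 called lower by DESeq2. At T30, 3 rose and 1 fell, where 3.66% of all genes rose and 1.34% fell. The 3 that rose were Tra2b, Srsf3 and Hnrnpa1, and the gene that fell was Hnrnpr. At T60, 32 rose and 3 fell (27.9% and 28.3% of all genes), at T90, 36 rose and 4 fell (33.8% and 35%), and at T120, 40 rose and 4 fell (37.3% and 39.5%). The median log2 fold change of the 54 genes was 0.41 at T60, 0.74 at T90 and 0.94 at T120, beside -0.03, -0.05 and -0.08 over all listed genes. These 5 comparisons share the T0 libraries. In a joint test over the 6 time points 49 of the 54 genes passed, beside 85.7% of all genes.

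Without library C of T30, 5 of the 54 genes fell at T30, and without B of T90 2 fell. Of all listed genes 108 fell at T30 with every library, 191 without C of T30 and 99 without B of T90. Without C of T0, A of T60 or B of T60, 1 of the 54 genes fell at T60, and without A of T120 2 fell at T120. Of all listed genes 2281 fell at T60 with every library, and 2093, 2016 and 2114 without those 3 in turn. At T120 3184 of all listed genes fell with every library, and 2968 without A of T120. At T15, 1 of the 54 genes fell without B or without C of T90. In each case 2 of all listed genes fell, against 1 with every library. Subtracting the background density from each gene left 22 of the 54 genes higher and 5 lower at T60 (20.4% and 16.9% of all listed genes), 35 higher and 7 lower at T120 (32.3% and 30.8%), and 10 higher at T30 (5.97%).

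**Figure D1:**
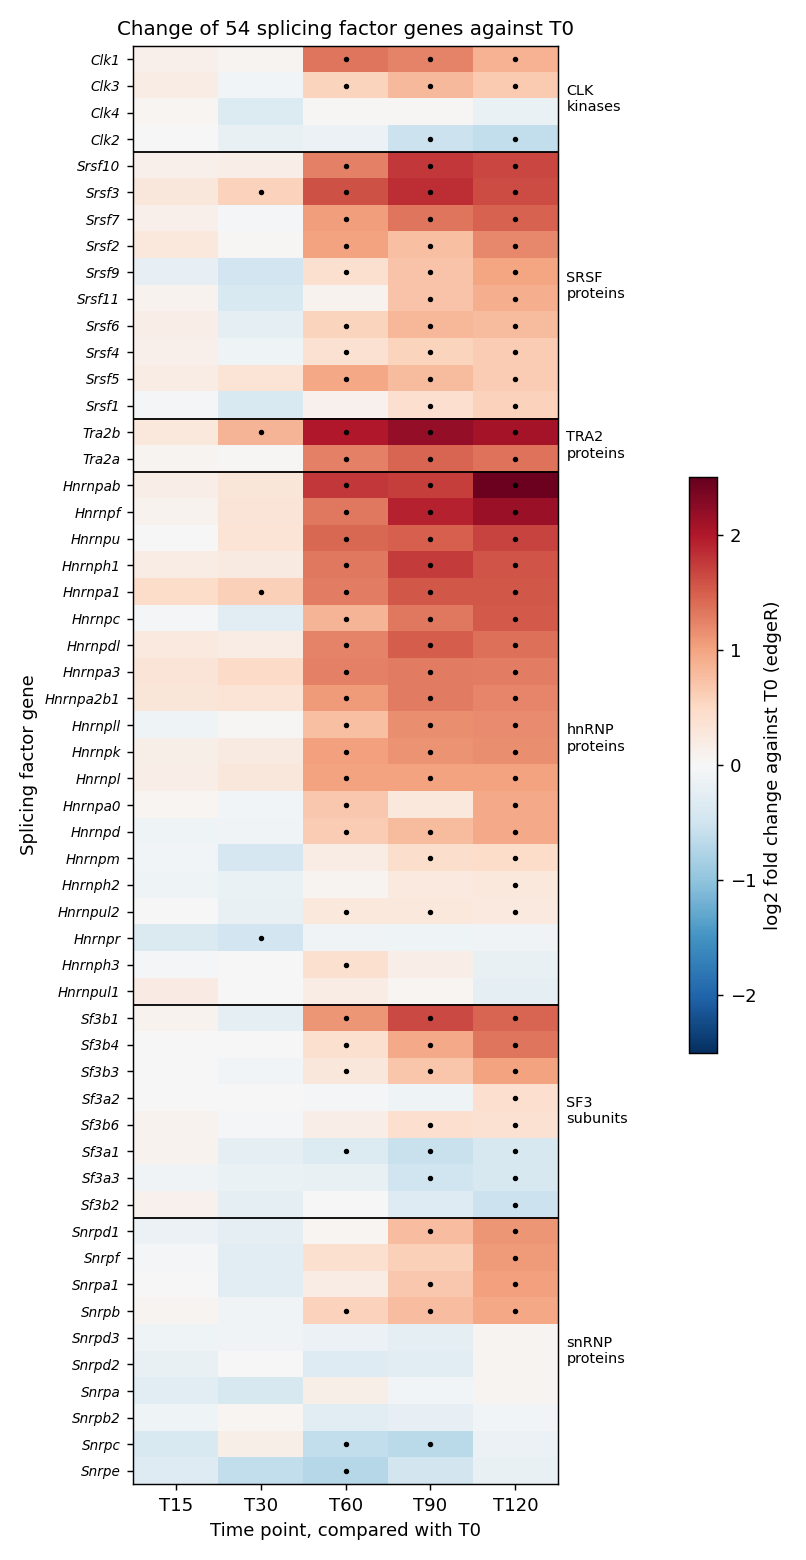
Log2 fold change against T0 (colour) of each of the 54 splicing factor genes (rows, by class) at T15 to T120 (columns); a dot marks an adjusted p under 0.05 in edgeR. Most SRSF and hnRNP rows and both TRA2 rows are red with dots from T60 on, and the snRNP rows are mixed.

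The classes differed in how many members were called. At T120 all 10 SRSF genes (median log2 fold change 0.94), both TRA2 genes (1.72) and 17 of 20 hnRNP genes (1.17) rose and none of these fell. Among SF3 subunits 5 of 8 rose and 3 fell (median 0.40), among CLK kinases 2 of 4 rose and 1 fell (0.24), and among snRNP proteins 4 of 10 rose and none fell (0.08). Over all listed genes 37.3% rose and 39.5% fell at T120. The snRNP count that rose and the SF3 count that fell lie near these shares. At T60 the counts were already 8 of 10 for SRSF, both TRA2 genes and 16 of 20 for hnRNP, but 1 of 10 for snRNP, where Snrpe and Snrpc fell. Of all listed genes 27.9% rose and 28.3% fell at T60. A difference between classes was not tested.

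**Figure D2:**
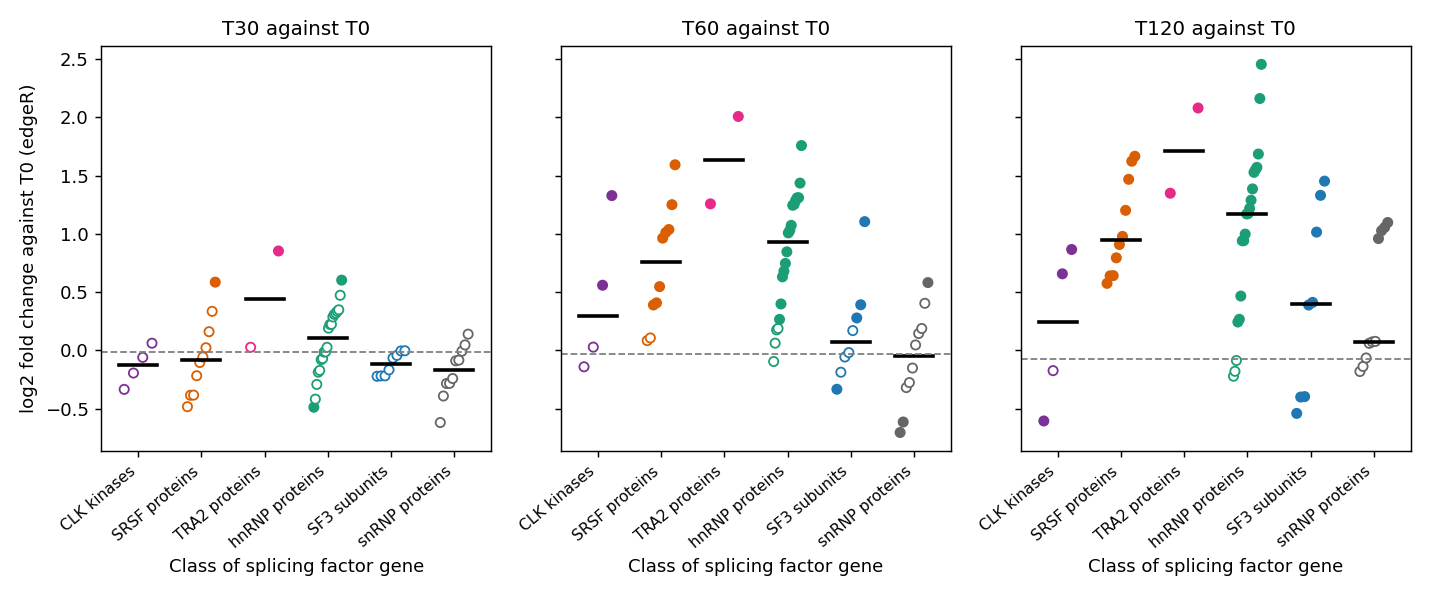
Log2 fold change against T0 for each member, by class, at T30, T60 and T120; filled points passed edgeR's adjusted p of 0.05, black bars are class medians and the dashed line is the median of all listed genes. The TRA2 and hnRNP medians stand at 1.72 and 1.17 at T120, and the snRNP median at 0.08.

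In steps between neighbouring time points, most calls fell between T30 and T60. From T15 to T30 the only gene called was Tra2b (4.89% of all genes), and from T30 to T60 38 rose and 1, Snrpc, fell (26.5% and 24.5%). Snrpc stood at 4.45 CPM per kb of exon at T30, where the median background was 4.69. The background is not TMM scaled and the gene level is, so which was higher cannot be read from these values. From T60 to T90 12 rose and 2 fell (16.7% and 13.6%), and from T90 to T120 5 rose and 1 fell (9.11% and 13.9%). With the background subtracted the count from T30 to T60 was 20, and leaving out the 5 libraries where background was highest made it 18, and the share of all listed genes called in that step fell too, from 51% to 29.3% and 20.1%. Subtraction moved the median log2 fold change of all genes in this step from 0.01 to 0.175, and that of the splicing factor genes from 0.62 to 0.33. Without those 5 libraries, which leaves 1 library at T30, the medians were -0.013 for all genes and 0.37 for the splicing factor genes. In both settings the median of the splicing factor genes stood less far above that of all genes. Clk4 was among the 38 that rose (0.36 ± 0.15, edgeR adjusted p = 0.0425), but the call was lost without 14 of the 22 libraries in turn and in 6 other settings. Other counts moved with single libraries. From T15 to T30, 11 genes were called without C of T30 and 5 without D of T15. Of all listed genes, 255 rose and 139 fell in that step with every library. These were 673 and 423 without C of T30, and 767 and 373 without D of T15. From T60 to T90, 8 splicing factor genes were called without C of T90. There 956 of all listed genes rose and 774 fell, against 1347 and 1094 with every library. From T90 to T120, 10 splicing factor genes were called without A of T90, 3 without B or without C of T90, and 2 without D of T120. Of all listed genes 734 rose and 1117 fell with every library, and 968 and 1125 without A of T90. These counts were 343 and 564 without B of T90, 463 and 634 without C of T90, and 489 and 573 without D of T120. With every library, the 5 splicing factor genes that rose in that last step were Hnrnpab, Hnrnpa0, Sf3a2, Srsf2 and Sf3b3, and Hnrnph3 fell. By the highest mean level, 25 genes peaked at T120, 15 at T90, 4 at T60, and 4, 4 and 2 at T0, T15 and T30. Peak times were not counted over all listed genes, so these counts have no share beside them.

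Together the 54 genes took 1.05% ± 0.032 (SD, n = 4) of listed counts at T0, 1.10% ± 0.112 (n = 3) at T30, 1.55% ± 0.060 (n = 4) at T60 and 1.69% ± 0.073 (n = 4) at T120. The T60, T90 and T120 libraries, at 1.48% or more, did not overlap the earlier ones, at 1.23% or less.

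Tra2b, an SR-like protein that activates weak exons, was among the 4 genes first called at T30. The gene lies on chromosome 16 at 22244549 to 22266005 of GRCm38 (the mm10 build), minus strand. Its level was 71.3, 69.2, 72.1 and 67.0 CPM in the T0 libraries, 89.5, 81.8, 92.5 and 73.1 at T15 and 129, 106 and 143 at T30. It reached 312, 263, 259 and 290 at T60, 365, 277 and 314 at T90 and 330, 234, 305 and 312 at T120. The T15 libraries lie just above T0, those of T30 above T15, and those of T60 to T120 above all earlier ones. Against T0 the log2 fold change was 0.85 ± 0.13 (SE) at T30 (edgeR adjusted p = 1.51e-04), 2.01 ± 0.12 at T60 (3.13e-11) and 2.08 ± 0.12 at T120 (7.58e-12). With the background subtracted, the T60 value was 2.11.

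Tra2a, its paralog, rose only from T60. It measured 206, 250, 197 and 250 CPM at T0 and 256, 201 and 232 at T30, which overlap. Levels of 609, 554, 432 and 564 at T60 and 673, 507, 590 and 530 at T120 were all above those. The log2 fold change was 1.26 ± 0.14 (edgeR adjusted p = 2.39e-07) at T60 and 1.35 ± 0.14 (2.49e-08) at T120.

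Among SRSF genes the 4 with the largest joint F statistic were Srsf3, Srsf10, Srsf7 and Srsf2. Srsf3, which regulates exon inclusion and mRNA export, lies on chromosome 17 at 29032628 to 29043373 (GRCm38, plus strand). It stood at 81.3, 105, 96.1 and 100 CPM at T0, 137, 122, 114 and 95.7 at T15 and 129, 142 and 160 at T30, then 308, 295, 279 and 273 at T60, 291, 326 and 421 at T90 and 331, 284, 284 and 282 at T120. All T30 libraries were above all T0 libraries and below all of T60. The log2 fold change was 0.59 ± 0.13 at T30 (edgeR adjusted p = 0.00907) and 1.59 ± 0.13 at T60 (1.47e-09), and the T30 call was lost without the 5 libraries of highest background (0.67, adjusted p = 0.0858), where T30 keeps 1 library whose spread is taken from the others.

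Srsf10, a regulator whose activity depends on its phosphorylation, measured 90.9, 98.1, 85.5 and 104 CPM at T0, 219, 248, 214 and 222 at T60, 314, 315 and 336 at T90 and 370, 304, 273 and 257 at T120. Its T60 libraries were all above T0 and below T90, with a log2 fold change against T0 of 1.25 ± 0.14 at T60 and 1.67 ± 0.14 at T120 (edgeR adjusted p = 9.69e-10). Srsf7, an SR protein with a zinc knuckle, went from 98.8, 116, 100 and 119 CPM at T0 to 231, 218, 187 and 258 at T60 and 323, 259, 300 and 323 at T120, without overlap between T0 and either. Srsf2 (SC35), a nuclear speckle protein that binds exonic enhancers, had 124, 127, 123 and 141 CPM at T0, 261, 267, 249 and 266 at T60, 290, 177 and 187 at T90 and 298, 252, 279 and 361 at T120. The A library of T90 stood apart from B and C. The log2 fold change of Srsf2 was 1.01 ± 0.14 at T60, 0.75 ± 0.15 at T90 and 1.20 ± 0.14 at T120 (edgeR adjusted p = 9.47e-08). Its rise from T90 to T120 was lost without B of T90 (edgeR adjusted p = 0.162), C of T90 (0.131) or D of T120 (0.101). That call was also lost with the background subtracted (0.508, adjusted p = 0.0736). Srsf2 shares 15.6% of its exon length with Mettl23 and 9.74% with Mfsd11, both on the opposite strand.

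The other 6 SRSF genes rose less. At T120 their log2 fold changes ran from 0.58 for Srsf1, the founding SR protein, to 0.98 for Srsf9. Among them Srsf4 shares 43.0% of its exon length with Gm12992 on the opposite strand. Srsf11 and Srsf1 were called from T90 and not at T60 (0.08 and 0.11). Srsf5 was the 1 SRSF gene with its highest mean at T60, at 685 ± 78.6 CPM against 351 ± 49.5 at T0 and 548 ± 47.2 at T120 (SD, n = 4 each).

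**Figure D3:**
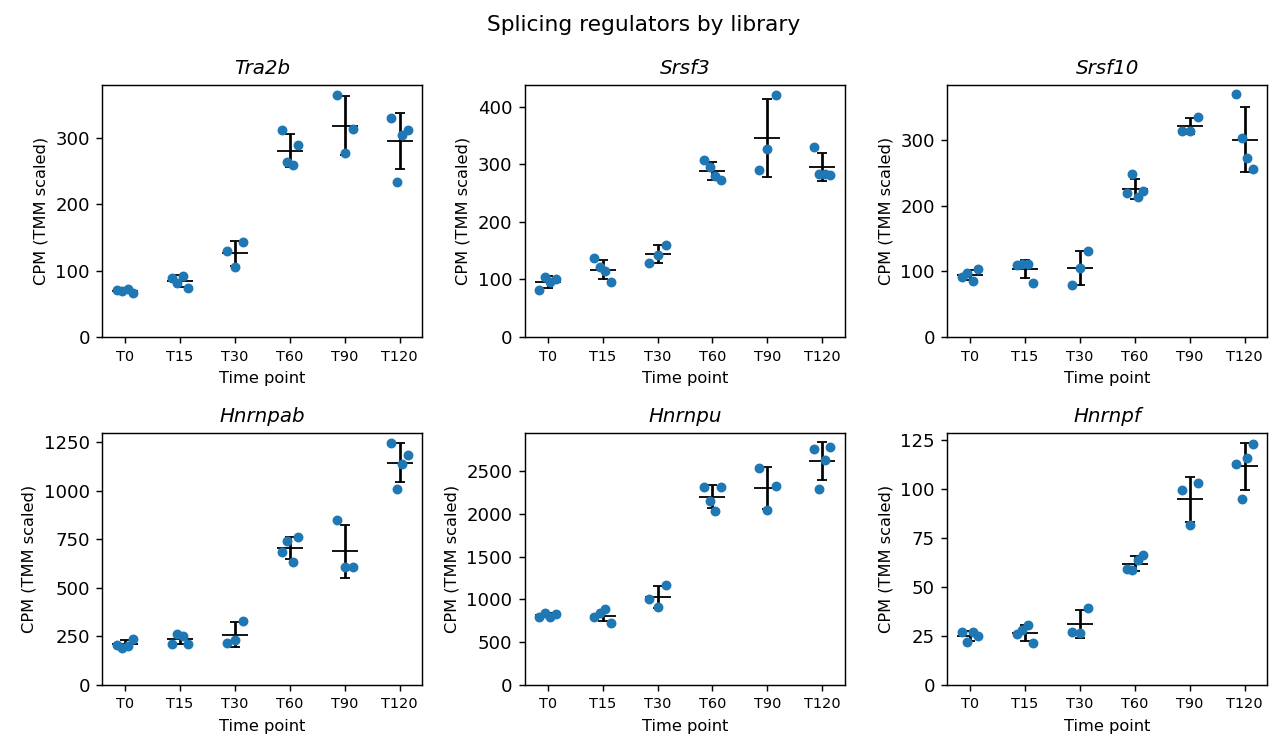
Level in CPM (TMM scaled) of 6 splicing regulators in each library (points) by time point; horizontal lines are means and bars are SD (n = 4, and n = 3 at T30 and T90). Tra2b is already higher at T30, and all T60, T90 and T120 points of these 6 genes lie above their T0 points.

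The hnRNP genes held the largest rise of all 54. Hnrnpab, which binds AU-rich RNA, lies on chromosome 11 at 51600100 to 51606847 (GRCm38, minus strand). It measured 207, 187, 201 and 238 CPM at T0, 686, 743, 634 and 759 at T60, 847, 605 and 608 at T90 and 1246, 1008, 1135 and 1185 at T120. The T120 libraries were above all others and those of T60 and T90 overlapped. The log2 fold change was 1.76 ± 0.14 at T60 and 2.46 ± 0.15 at T120 (edgeR adjusted p = 1.00e-11), or 2.19 with the background subtracted. Phykpl covers 29.1% of its exon length on the opposite strand, and with no strand setting known for the counting, reads of the genes may be mixed.

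Hnrnpf, which binds G-rich tracts, went from 26.9, 21.6, 26.8 and 24.8 CPM at T0 to 59.0, 58.5, 63.6 and 66.3 at T60, 99.5, 81.7 and 103 at T90 and 113, 94.9, 116 and 123 at T120. No T0 library overlapped those of T60 to T120, and the log2 fold change at T120 was 2.16 ± 0.14 (edgeR adjusted p = 2.04e-11). On the opposite strand 4933440N22Rik shares 13.5% of the exon length of Hnrnpf, and Gm43863 13.0%. Hnrnpu (SAF-A), a scaffold protein of chromatin and nuclear RNA, rose from 795, 838, 793 and 831 CPM at T0 to 2318, 2148, 2034 and 2311 at T60 and 2762, 2294, 2635 and 2783 at T120. Its T30 libraries, at 1009, 909 and 1163, were above those of T0, yet the test at T30 was not passed (log2 fold change 0.34 ± 0.11, edgeR adjusted p = 0.0961). At T120 the log2 fold change was 1.69 ± 0.11 (2.08e-11). Hnrnpc, which binds uridine tracts and masks cryptic splice sites, stood at 118, 111, 100 and 112 CPM at T0, 207, 192, 174 and 222 at T60 and 333, 286, 319 and 337 at T120, with no overlap among these time points and a log2 fold change at T120 of 1.53 ± 0.11 (1.16e-10).

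Hnrnpa1, a silencer of exons, was called higher at T30 (0.60 ± 0.18, edgeR adjusted p = 0.04996, just under the threshold), with 33.5, 32.9, 34.9 and 44.4 CPM at T0 and 44.5, 52.6 and 68.7 at T30. The lowest T30 library stands just above the highest of T0, and T15 held 46.9, 54.5, 59.8 and 41.0. By T60 it had 99.8, 95.3, 86.8 and 75.6 CPM. Hnrnpr was the gene that fell at T30, from 272, 257, 263 and 240 CPM at T0 to 179, 178 and 195, with 195, 190, 223 and 199 at T15 (log2 fold change -0.49 ± 0.10 at T30, edgeR adjusted p = 0.00275). The T120 libraries, at 262, 223, 225 and 262, overlapped those of T0. Hnrnpr stood at 8.28 CPM per kb of exon at T30, and A and B of T30 are among the 5 libraries of highest background. The T30 calls of Hnrnpa1 and Hnrnpr were not followed gene by gene through the alternatives. Hnrnpr, Hnrnph3 and Hnrnpul1 were the 3 hnRNP genes not called at T120, with log2 fold changes of -0.09, -0.18 and -0.22. Hnrnph3 was called only at T60, at 0.40, while its relative Hnrnph1 rose by 1.31 at T60 and 1.57 at T120 on the log2 scale.

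Levels per length set the genes in order. Per kb of exon, the highest at T0 were Hnrnpa2b1 at 102 ± 10.0 CPM per kb (SD, n = 4), Hnrnph1 at 94.1 ± 7.76 and Srsf5 at 88.1 ± 12.4, neighbours that do not differ beyond their spread. Hnrnpab had rank 4 at 74.9 ± 7.65, and at T120 it had rank 1 at 411 ± 36.4, followed by Hnrnph1 at 280 ± 30.2 and Hnrnpa2b1 at 238 ± 27.8. Sf3b2 went from rank 7 at T0, at 59.3 ± 6.50, to rank 24 at T120, at 40.8 ± 3.69. Tra2b moved from rank 47 to rank 31. The lowest was Snrpc, at 4.03 ± 0.789 at T0 and 3.64 ± 0.775 at T120, and the median of all listed genes was 9.36 and 9.69.

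The 4 CLK kinases, which phosphorylate SR proteins, went different ways. Clk1 (chromosome 1, 58410189 to 58424066 of GRCm38, minus strand) measured 295, 493, 361 and 441 CPM at T0, 459, 352 and 434 at T30, 1132, 995, 827 and 1040 at T60, 897, 919 and 1012 at T90 and 957, 505, 882 and 555 at T120. It was highest at T60, and at T120 libraries A and C stood well above B and D. The log2 fold change was 1.33 ± 0.20 at T60 (edgeR adjusted p = 1.08e-05), or 1.03 with the background subtracted, and 0.87 ± 0.20 at T120 (4.73e-04). The step from T90 to T120 did not pass the test (-0.38 ± 0.21, adjusted p = 0.201).

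Clk2 was the CLK gene that fell. It had 105, 117, 101 and 116 CPM at T0, 119, 90.8, 96.4 and 92.7 at T60, 90.9, 76.1 and 61.1 at T90 and 82.1, 71.4, 64.6 and 70.9 at T120. All T120 libraries lie below all T0 libraries, and the log2 fold change was -0.53 ± 0.12 at T90 (edgeR adjusted p = 6.03e-04) and -0.61 ± 0.11 at T120 (5.39e-05). Clk3 rose from 44.4, 53.4, 54.5 and 52.3 CPM at T0 to 76.4, 77.1, 70.8 and 77.1 at T60 and 83.8, 75.9, 87.4 and 75.4 at T120 with no overlap, at log2 fold changes of 0.56 ± 0.13 and 0.66 ± 0.13. With the background subtracted these were 0.81 (adjusted p = 0.264) and 0.94 (0.141) and were no longer called, and 15.2% of the exon length of Clk3 is shared with Edc3 on the opposite strand. Clk4, the nearest relative of Clk1, measured 154, 202, 177 and 193 CPM at T0, 198, 184, 179 and 180 at T60 and 186, 142, 164 and 152 at T120. These overlap, and no comparison of Clk4 with T0 passed (T120: -0.17 ± 0.13, edgeR adjusted p = 0.241), though with the background subtracted it was called lower at T120 (-0.39, adjusted p = 0.00183).

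**Figure D4:**
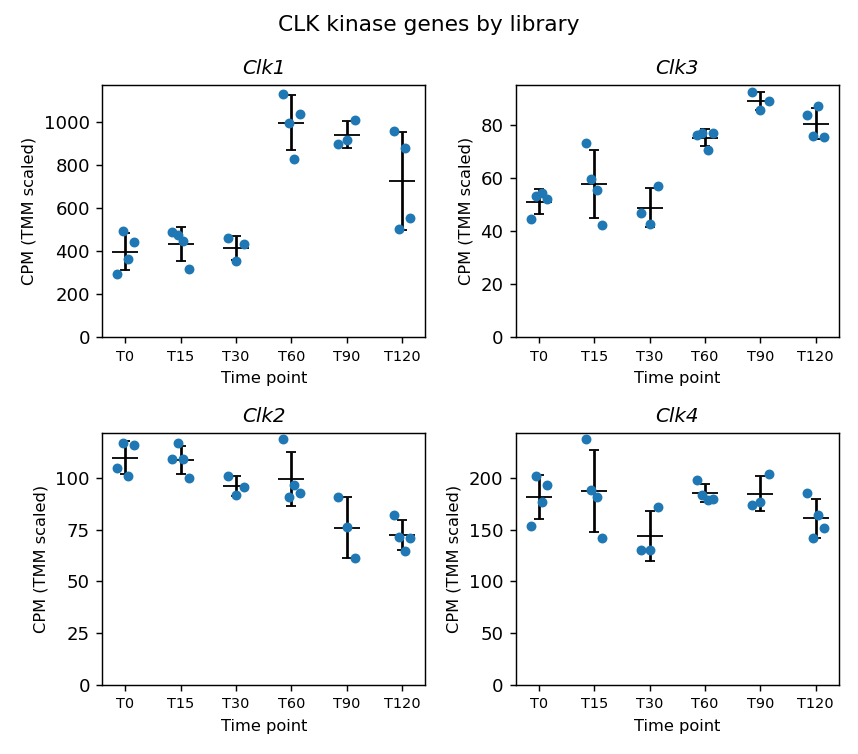
Level in CPM (TMM scaled) of the 4 CLK kinase genes in each library (points) by time point; horizontal lines are means and bars are SD (n = 4, and n = 3 at T30 and T90). Clk1 is highest at T60, Clk2 lowest at T120, and the Clk4 points of T0 and T120 overlap.

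SF3 subunits of the same U2 complex moved in opposite directions. Sf3b1, the branch point clamp (chromosome 1, 54985169 to 55027481 of GRCm38, minus strand), measured 362, 364, 329 and 383 CPM at T0, 273, 267 and 387 at T30, 837, 784, 653 and 824 at T60, 1158, 982 and 1241 at T90 and 1182, 839, 998 and 922 at T120. All later libraries are above all of T0 to T30, and the log2 fold change was 1.105 ± 0.14 at T60 and 1.45 ± 0.15 at T120 (edgeR adjusted p = 1.33e-08). Sf3b3, its large partner in the SF3b core, changed later, from 174, 164, 165 and 169 CPM at T0 and 186, 206, 209 and 214 at T60 to 325, 339, 329 and 366 at T120 (1.02 ± 0.10, 7.88e-09). Its T60 call (0.28) was lost with the background subtracted (0.10), without B of T0 (0.263, adjusted p = 0.0559), without D of T60 (0.261, 0.0575) and with a mean count of at least 200 (0.217, 0.0506). Sf3b4, which contacts RNA upstream of the branch point, went from 15.8, 18.3, 18.2 and 13.6 CPM at T0 to 40.4, 39.1, 40.3 and 44.7 at T120 (1.33 ± 0.16, 1.78e-07), with no overlap. Its T60 call (0.39) was lost without A or D of T0, without B or D of T60, and in 4 other settings, with adjusted p-values of 0.0817 to 0.141 among the single libraries.

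Sf3a1, the SF3a subunit that ties U2 to other snRNPs, fell from 115, 114, 131 and 133 CPM at T0 to 88.7, 81.6, 113 and 108 at T60 and 84.6, 89.1, 91.0 and 109 at T120. T120 lies just below T0 without overlap, and the log2 fold change was -0.40 ± 0.13 (edgeR adjusted p = 0.00768), a call lost without A of T120 (-0.309, adjusted p = 0.0537) or without the 5 libraries of highest background (-0.345, 0.0593). Its T60 call (-0.33) was lost without C of T0, D of T0, A of T60 or B of T60 (-0.268 to -0.312, adjusted p = 0.0612 to 0.107) and without those 5 libraries (-0.322, 0.107). The other SF3 genes that fell at T120 were Sf3b2 (-0.54, 0.00123) and Sf3a3 (-0.40, 0.0172), while Sf3a2 (0.41) and Sf3b6 (0.39) rose. Plekhj1 on the opposite strand shares 16.1% of the exon length of Sf3a2.

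**Figure D5:**
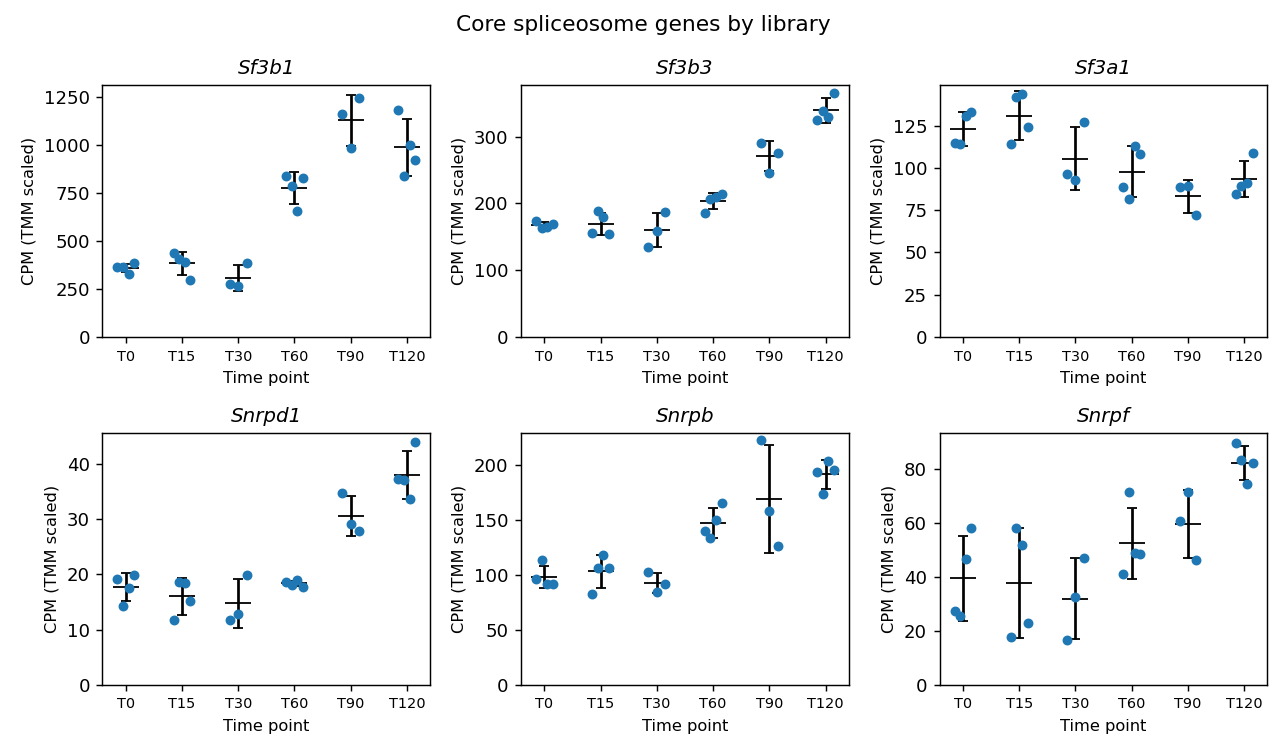
Level in CPM (TMM scaled) of 6 core spliceosome genes in each library (points) by time point; horizontal lines are means and bars are SD (n = 4, and n = 3 at T30 and T90). Sf3b1 rises at T60 and Snrpd1 at T90, and the Sf3a1 points of T120 lie below those of T0.

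Of the snRNP genes, 4 rose by T120. Snrpa1, which binds the stem of U2 RNA as part of the U2 snRNP, had 19.9, 22.8, 23.7 and 21.5 CPM at T0, 24.0, 27.0, 25.7 and 23.4 at T60 and 40.9, 44.4, 43.8 and 49.8 at T120 (1.03 ± 0.14, edgeR adjusted p = 1.17e-06). Snrpd1, an Sm ring protein, stood at 19.2, 14.3, 17.6 and 19.9 CPM at T0 and 18.7, 18, 18.9 and 17.8 at T60, which overlap, and at 34.7, 29.1 and 27.9 at T90 and 37.3, 37.1, 33.7 and 44.0 at T120 (1.10 ± 0.17, 6.98e-06). Both were first called at T90 (0.68 and 0.78), and both of those calls were lost with the background subtracted (0.835, adjusted p = 0.167, and 0.80, 0.213). Snrpb, the SmB ring protein, went from 96.0, 113, 91.3 and 91.8 CPM at T0 to 140, 133, 150 and 165 at T60 and 193, 173, 203 and 195 at T120 without overlap. Its log2 fold change was 0.58 ± 0.14 at T60 (edgeR adjusted p = 0.00142) and 0.96 ± 0.14 at T120 (2.92e-06), and the T60 call was lost with the background subtracted (0.26, adjusted p = 0.338). Snrpf, another ring protein, varied widely at T0, with 27.3, 25.6, 46.4 and 58.2 CPM, and reached 89.7, 83.1, 74.3 and 82.0 at T120 (1.06 ± 0.34, 0.00802). Ccdc38 on the opposite strand shares 65.9% of the exon length of Snrpf, so its counts are uncertain.

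The remaining 6 snRNP genes were not called at T120, with log2 fold changes from -0.18 (Snrpe) to 0.08 (Snrpd3). Thus within the Sm ring Snrpb, Snrpd1 and Snrpf rose, and Snrpd2, Snrpd3 and Snrpe gave 0.07, 0.08 and -0.18. Snrpe was lower at T60 (-0.70 ± 0.20, edgeR adjusted p = 0.00482), as was Snrpc, which helps U1 bind the 5′ splice site (-0.61 ± 0.24, 0.0372). Snrpc stood near the background, at 4.03 CPM per kb of exon at T0 and 2.61 at T60. The median background there, not TMM scaled, was 2.52 and 0.155, so the counts of Snrpc are uncertain. The part of background in the fall of Snrpc was not tested. Snrpc was not the only gene near the background at T30, where its median was 4.69 CPM per kb. There Hnrnpll stood at 5.03 CPM per kb, Snrpa1 at 5.67, Clk3 at 5.78 and Snrpb2 at 6.72. Sf3b6 (7.10), Snrpd1 (7.21) and Sf3b4 (7.56) followed, so these levels are uncertain too. The fewest counts of any of the 54 genes in 1 library were 53, for Snrpd1.

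In all, every T120 library was above every T0 library for 38 of the 54 genes (34.9% of all listed genes), below for 3 (36.5%), and overlapping for 13. The 3 were Clk2, Sf3a1 and Sf3b2.

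Because many of these genes rose together, the DNA before the start site is shown for the TRA2 pair, for the hnRNP genes with the largest and the earliest rise, and for the CLK gene that fell. Each is the 250 bases before the RefSeq start site (GRCm38.p6, written 5′ to 3′ along the gene), with motif matches on either strand in capitals. The windows are Tra2b chr16:22266006-22266255 (minus strand), Tra2a chr6:49264053-49264302 (minus), Hnrnpab chr11:51606882-51607131 (minus), Hnrnpa1 chr15:103240147-103240396 (plus) and Clk2 chr3:89164545-89164794 (plus).
Tra2b: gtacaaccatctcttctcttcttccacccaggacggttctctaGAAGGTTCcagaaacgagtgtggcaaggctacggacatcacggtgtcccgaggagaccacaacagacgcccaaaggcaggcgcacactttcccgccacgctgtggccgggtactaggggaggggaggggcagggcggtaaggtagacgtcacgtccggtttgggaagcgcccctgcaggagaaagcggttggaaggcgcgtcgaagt
Tra2a: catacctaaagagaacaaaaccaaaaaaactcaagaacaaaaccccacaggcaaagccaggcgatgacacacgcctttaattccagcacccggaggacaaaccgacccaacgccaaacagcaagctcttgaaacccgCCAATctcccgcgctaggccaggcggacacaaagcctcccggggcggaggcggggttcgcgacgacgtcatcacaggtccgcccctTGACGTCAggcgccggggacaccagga
Hnrnpab: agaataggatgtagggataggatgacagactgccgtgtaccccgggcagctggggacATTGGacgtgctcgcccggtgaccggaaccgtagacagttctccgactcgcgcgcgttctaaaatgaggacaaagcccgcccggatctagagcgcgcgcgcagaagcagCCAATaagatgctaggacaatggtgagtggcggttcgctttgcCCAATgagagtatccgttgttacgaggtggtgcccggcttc
Hnrnpa1: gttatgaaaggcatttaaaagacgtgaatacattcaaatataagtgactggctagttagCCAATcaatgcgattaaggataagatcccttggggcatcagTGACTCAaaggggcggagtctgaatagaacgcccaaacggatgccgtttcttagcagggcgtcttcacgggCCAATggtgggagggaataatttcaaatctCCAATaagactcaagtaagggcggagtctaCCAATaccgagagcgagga
Clk2: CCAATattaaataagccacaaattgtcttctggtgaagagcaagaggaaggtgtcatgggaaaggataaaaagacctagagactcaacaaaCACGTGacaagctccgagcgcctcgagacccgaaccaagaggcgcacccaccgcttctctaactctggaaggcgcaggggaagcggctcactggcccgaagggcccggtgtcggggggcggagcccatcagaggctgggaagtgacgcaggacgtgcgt

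The letters searched were CCAAT, the cyclic AMP response element TGACGTCA, the AP-1 site TGANTCA, the E-box CACGTG, the ETS site CCGGAAGT, the TATA box TATAAA and a heat shock element core GAANNTTC, on both strands, and none of these strings contains another. Promoters were found for 48 of the 54 genes, 62 promoters in all, since some genes have several start sites and a few of those windows share bases. CCAAT stood in 27 of the 62 (43.5%), beside 34.3% of 7837 promoters of listed genes and 33.8% of 32851 in the table, and in 17 of 27 hnRNP promoters. Hnrnpab carries it 3 times, the nearest starting 41 bases before the start site, and Hnrnpa1 4 times, the nearest at 19 bases. The ETS site was in 14.5% (6.25% of promoters of listed genes), the heat shock core in 12.9% (4.7%), the E-box in 9.68% (8.96%), TATAAA in 8.06% (6.09%), TGACGTCA in 4.84% (2.87%) and the AP-1 site in 3.23% (4.13%). In Tra2b the only match was a heat shock core 207 bases before the start, and Tra2a has TGACGTCA at 27 bases. Hnrnpa1 also has an AP-1 match and Clk2 an E-box. The median GC content was 61.2% for these 62 promoters and 61.2% for those of listed genes. A match is a description of letters, not of a bound site.

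Genes outside the 54 that act with them were counted from 8 lists, beside the 37.3% of all genes that rose and the 39.5% that fell at T120. Of 9 SR protein kinase and phosphatase genes, 7 rose and 1 fell. Ppp2ca (2.40, log2 fold change at T120 against T0) and Ppp1cb (1.71), phosphatase catalytic subunits, rose, and the SR protein kinase Srpk2 fell (-0.93). Of 31 other regulators of splice site choice, 23 rose and 4 fell. Ptbp1 (2.71) and Ptbp3 (2.17), polypyrimidine tract binding proteins, rose, and Tia1 (-2.61), which helps U1 bind weak sites, and the cold-inducible Cirbp (-1.81) fell. Of 12 U2AF and early factors, 7 rose and none fell, with Sf1 (1.73), the branch point binding protein, and U2af1 (1.67), which reads the 3′ splice site, rising most.

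The later machinery moved both ways at T120. Of 15 tri-snRNP genes, 8 rose and 4 fell, among them Nhp2l1 (1.72) and Usp39 (1.35) rising and Prpf31 (-0.88) and Prpf4 (-0.55) falling. Of 21 genes of the PRP19 complex and catalytic activation, 7 rose and 7 fell, with Bud31 (1.48) and the helicase Dhx15 (1.45) up and Cwc22 (-0.86) and Prpf19 (-0.66) down. At T60 this list had 2 higher and 9 lower, beside 27.9% and 28.3% of all genes. Of 7 LSm genes, 3 rose and 3 fell, Lsm12 (1.81) and Lsm6 (-1.37) at the ends. Lsm6 encodes a subunit of the Sm-like rings, and Lsm12 an LSm-domain protein that is not part of those rings.

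Of 14 genes of the exon junction complex and nonsense-mediated decay, the pathway that degrades transcripts with premature stops, 8 rose and 3 fell. Magoh (1.65) of the junction core and the kinase Smg1 (1.54) rose, and Upf3b (-0.94) and Smg9 (-0.83) fell. Of 10 genes of snRNP assembly by SMN and PRMT5, 6 rose and 2 fell, with Strap (1.64) up and the arginine methyltransferase Prmt5 (-0.77) down. At T60 that list had 1 higher and 5 lower.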

How the data were processed

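Bulk RNA of 6 samples (T0 to T120) was analysed as the 22 library columns of the authors' table, and 9 samples of other assays were not analysed here. Per the labels' protocols, RNA was extracted with a kit for fixed tissue, made into stranded total RNA libraries and read as 65 bp single ends. The authors deposited raw counts per gene, and per the submitters' processing notes used cutadapt 1.11, featureCounts 1.4.5-p3, DESeq2 1.18.1 and mm10. The aligner and annotation release, like the strand setting, were not given in the sources used here. Per the file headers, the same table holds normalized values (used here as a score, only to recover the authors' size factors), fold changes, their log2 values and adjusted p-values for every pair of time points, of which those against T0 were set beside the counts made here. The table lists only genes with a mean normalized value of 98.4 or more, so less abundant genes were not tested.

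Raw counts were fitted with edgeR 4.0.16 (R 4.3.3), TMM scaling and quasi-likelihood F tests, in 1 model of all 22 libraries with time as a factor. P-values were adjusted by Benjamini-Hochberg over 8059 genes at 0.05. CPM of genes are TMM scaled, and those of the background are scaled to the total of listed counts only. Depth was 2974294 to 27826437 listed counts, and the common biological coefficient of variation was 0.192. The steps were tested on simulated data. Exon lengths, positions and overlaps come from GENCODE vM21 (8049 of 8059 IDs matched), promoters from RefSeq (GRCm38.p6). Alternatives were RLE and the authors' size factors, DESeq2 1.42.0, limma-voom (limma 3.58.1), no filter, a mean count of at least 200, a letter block, leaving out each library, leaving out the 5 libraries of highest background, and subtracting the background density times each gene's exon length. Background genes were those of 62 hand-written names that were listed with at least 5000 bases of exon (10 genes). Shown library by library are all CLK and TRA2 genes and the 4 genes with the largest joint F of each other class, and others are named for a count, a range end or a level. Hnrnpa1 and Hnrnpr, called at T30, were added to those shown by library after their values were seen. Of each other list, up to 2 raised and 2 fallen genes of largest change are named. Genes and lists were chosen with earlier results of these data known.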

Additional observations from a re-analysis of the deposited data

Results flagged for a closer look

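Among 88 groups of 4 libraries (all CLK and TRA2 genes and the 4 genes of largest joint F in each other class, at T0, T15, T60 and T120), 3 held a library far from the other 3, where chance flags about 1 group in 20. Srsf3 measured 331 CPM in library A of T120, against 282 to 284 in the others. Srsf10 measured 82.5 CPM in library D of T15, against 110 to 111, and that library is among the 5 of highest background. Clk3 measured 70.8 CPM in library C of T60, against 76.4 to 77.1.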

How the results depend on the processing

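The counts of genes higher at T60, T90 and T120 stayed within 1.5 times under every alternative run. The smaller counts moved. With the authors' size factors 8 genes rose at T30 and 2 were called from T15 to T30. Of all listed genes 437 rose at T30 with those factors, against 295 in the main fit. From T15 to T30, 297 of all listed genes rose and 66 fell, against 255 and 139. DESeq2 called 1 lower at T15 and 3 from T15 to T30, and limma-voom called 2 lower at T30 and 11 from T90 to T120. Of all listed genes, DESeq2 called 2 lower at T15, and 434 higher and 213 lower from T15 to T30. By limma-voom 68 of all listed genes were lower at T30, and 972 rose and 1295 fell from T90 to T120. A mean count of at least 200 gave 1 lower at T15 and 2 from T15 to T30. Of all genes kept there, 2 were lower at T15, and 257 rose and 126 fell from T15 to T30. With the background subtracted, 10 rose at T30, 5 fell at T60 and 7 fell at T120. From T15 to T30, T30 to T60 and T60 to T90, 9, 20 and 8 were called. In the same order, the shares of all listed genes were 5.97%, 16.9% and 30.8%, and 5.21%, 29.3% and 14%. Subtraction also turned the step from T30 to T60 of Clk4 from 0.36 to -0.13 and of Snrpb from 0.67 to -0.031 on the log2 scale. Without the 5 libraries of highest background, 0 fell at T30 or T60, 0 were called from T15 to T30 and 18 from T30 to T60, with 1 library left at T30 that is assumed to vary like the others. The cause of these moves was not tested. Leaving out 1 library gave 2 to 10 genes called from T90 to T120, 1 to 11 from T15 to T30, 8 to 15 from T60 to T90, 2 to 4 lower at T120, 0 to 1 at T15, 1 to 5 at T30 and 1 to 4 at T60. Where such a count moved, the counts over all listed genes are given above. Same-letter libraries deviated together only in part (median r 0.116 over 51 pairs, -0.021 for different letters, 11 of 22 libraries correlating best with their own letter). With the letter as a replicate block 31, 35 and 39 genes rose and 3, 5 and 4 fell at T60, T90 and T120. Of all listed genes 2224, 2729 and 2977 rose and 2334, 2847 and 3205 fell in that fit. By the authors' deposited table, 32, 38 and 40 of the 54 genes rose and 3, 5 and 4 fell at these time points. The share of all listed genes was not counted for the authors' comparisons. The background was subtracted by the exon length of the union of all transcripts, and whether this gives the right amount for each gene was not tested.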

Other observations

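The counts sum all transcripts of a gene, so productive and unproductive splice forms cannot be told apart here. GENCODE annotates a nonsense-mediated decay transcript for 30 of the 54 splicing factor genes (55.6%), beside 32% of 7641 protein-coding listed genes. By class these were all 4 CLK genes, 9 of 10 SRSF genes, both TRA2 genes, 10 of 20 hnRNP genes, 4 of 10 snRNP genes and 1 of 8 SF3 genes. A transcript with a retained intron is annotated for 43 of the 54 (79.6%), beside 67.5%. These are annotations, and the use of such transcripts was not measured.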
